A study of Mus musculus with 4 samples.

Results

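The genes described here are 9 regulators and markers of the nephric duct and the ureteric bud: Pax2, Pax8, Emx2, Lhx1, Ret, Calb1, Mecom, Sall4 and Etv5. They were taken by gene name from an array that holds 30010 named genes, and all 9 are on it, with 17 probes. Total RNA of whole ureters from NMRI mouse embryos at E15.5 was compared between ΔNp63-cKO embryos, which carry Pax2-cre/+ together with Trp63(dN-flox/dN-flox), and control embryos of genotype Trp63(dN-flox/?), with at least 1 floxed allele and no cre listed. In the cKO embryos, Cre made under Pax2 control acts on both floxed Trp63 alleles, so that the ΔN isoform, which basal epithelial cells need, is no longer made where cre is active. On each of 4 arrays a cKO RNA was hybridised together with a sex-matched control RNA. Replicates 1 and 2 were female and replicates 3 and 4 male, and cKO RNA was red in replicates 1 and 3 but green in replicates 2 and 4. The labels do not say how many embryos gave each RNA, so p-values measure the spread between these RNAs. An effect of the cre transgene cannot be told apart from the loss of ΔNp63. In RNA of a whole ureter, fewer cells of a type and less RNA per cell cannot be told apart either.

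The ureteric bud is an outgrowth of the nephric duct, and its stalk becomes the epithelium of the ureter while its branching tips become the collecting ducts of the kidney. Pax2, Pax8, Lhx1 and Emx2 are transcription factors that the duct and the bud need to form. Ret is the receptor tyrosine kinase that receives the kidney signal Gdnf at the bud tips, with Gfra1 as its co-receptor, and the Ets factors Etv4 and Etv5 act downstream of it. Calb1, a calcium-binding protein, is a widely used marker of the bud. Mecom and Sall4 encode zinc finger transcription factors with roles in blood and pluripotent cells as well. Since Pax2 sequences drive the cre used here, the level of Pax2 also bears on the state of the tissue in which the deletion takes place.

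Several of these genes have more than 1 probe, and the probes of 1 gene did not always give a signal. The following 60-base probe sequences are shown because the text below turns on which stretch of a gene was measured. Each has at least 1 reading frame free of stop codons, and their positions are those of build mm9. The first of each pair for Pax2 and Sall4 was well above background in every RNA, and the second in none, counting an RNA where 0.5 or more of a probe's spots were. The Lhx1 probe spans 153 bases of the genome, so its 60 bases are not contiguous there. No stretch is in capitals, since no part of a probe was singled out.
Pax2, chr19:44909895-44909954, plus strand: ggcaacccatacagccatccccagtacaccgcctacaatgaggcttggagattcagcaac
Pax2, chr19:44835420-44835479, plus strand: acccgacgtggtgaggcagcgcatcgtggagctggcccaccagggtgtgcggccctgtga
Lhx1, chr11:84335442-84335594, minus strand: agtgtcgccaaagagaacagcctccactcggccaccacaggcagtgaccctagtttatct
Mecom, chr3:29876185-29876244, minus strand: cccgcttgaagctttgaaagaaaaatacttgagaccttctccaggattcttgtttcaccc
Sall4, chr2:168578172-168578231, minus strand: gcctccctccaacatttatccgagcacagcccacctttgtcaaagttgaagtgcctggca
Sall4, chr2:168580437-168580496, minus strand: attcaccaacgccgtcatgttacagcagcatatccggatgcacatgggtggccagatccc

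None of the regulators differed between cKO and control ureters by the test applied to all genes. Of the 9 genes, 8 had a probe that passed the filter on dim spots, and 0 of these 8 were called (limma, adjusted p under 0.05), against 1.19% of all 21518 genes tested (0.697% lower and 0.497% higher). None reached an unadjusted p under 0.05 either, which 8.04% of all genes did. Their mean log2 ratios of cKO over control lay between -0.27 for Ret and 0.35 for Mecom, with a median of 0.07 beside -0.000239 over all genes. The count of called regulators was also 0 with Agilent's processed signals (1.43% of all genes called), median centring (1.14%), no filter (0.287%), the deposited value table (0.00465%), no dye term (2.14%), a sex term (2.52%) and 8 unpaired channels (1.8%). It was 0 as well without replicate 1 (1.68%) or replicate 3 (1.32%). It was 1 without replicate 2 (4.35%), 2 without replicate 4 (7.44%) and 1 with replicates 1 and 3 alone (3.38%). For none of the 8 did all 4 arrays have the same sign, which 15.3% of all genes had. In each of the 8, the levels of the 4 cKO RNAs overlapped those of the 4 control RNAs, and 6.38% of all genes had no overlap. With 8 genes, counts of 0 are near what these shares give, so they do not set the regulators apart from other genes.

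**Figure D1:**
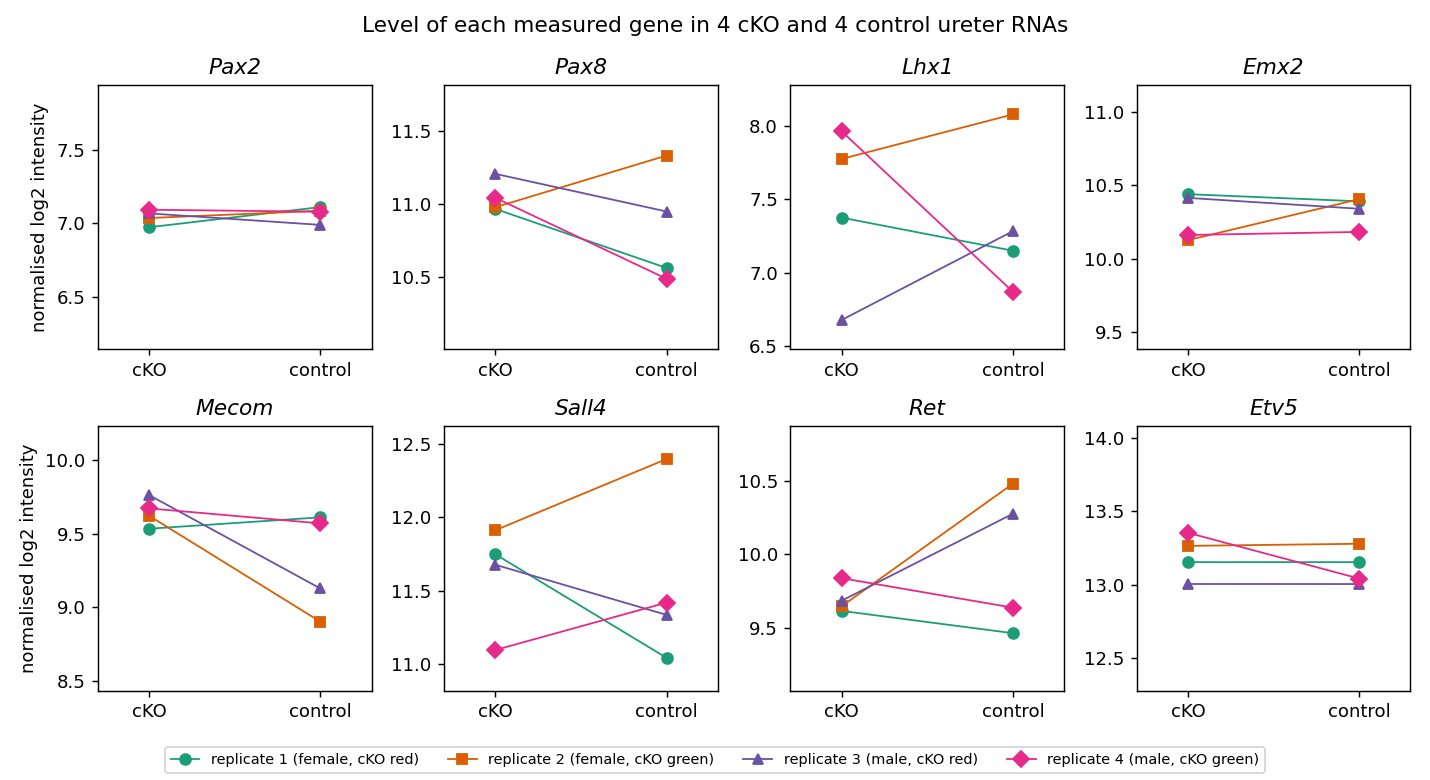
Normalised log2 intensity of the 8 genes with a probe above background, in the 4 cKO RNAs (left of each panel) and the 4 control RNAs (right). Lines join the RNAs of 1 array, all panels span the same range of log2 units, and levels of different genes cannot be compared because probes differ. The cKO and control levels overlap in every panel.

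On the same arrays, Trp63 was lower in every cKO RNA, by a log2 ratio of -1.39, -1.18, -1.30 and -1.62 (replicates 1 to 4). Its mean was -1.37 ± 0.18 (SD, n = 4; limma, adjusted p = 0.00327). Averaged over all kept Trp63 probes it was -0.87 (adjusted p = 0.0179), and with the deposited value table it was -1.41 without passing (adjusted p = 0.204). Its probe lies on chromosome 16 (25892012 to 25892071, mm9), and the sources do not say whether the deletion removes that stretch. Between 71.8% and 77.0% of gene spots were well above background per channel, and no spot was saturated. Replicates 2 and 4, with green cKO RNA, had ratios that correlated across genes with a Pearson r of -0.06 and a Spearman rho of -0.32. The other pairs of arrays ran from 0.16 (rho -0.21) for replicates 3 and 4 to 0.62 (rho 0.58) for replicates 2 and 3. Genes are not independent replicates, and directions are those of the dyes in the labels. Of the markers of the ureter itself, all 14 urothelial genes and all 13 genes of ureteric mesenchyme and smooth muscle were well above background. The number of arrays limits the precision of every value.

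Pax2, the paired-box factor whose sequences drive the cre, did not differ between the genotypes beyond the spread between RNAs. Its level was 6.97, 7.03, 7.07 and 7.09 in the cKO RNAs of replicates 1 to 4, against 7.11, 7.08, 6.99 and 7.08 in the control RNAs (normalised log2 intensity). All 8 values lay close together and the groups overlapped. The mean log2 ratio was -0.02 ± 0.09 (SD, n = 4), with a 95% interval of -0.21 to 0.16, or 0.864 to 1.12 times the control level (limma, adjusted p = 1). Of all genes, 20.2% had a smaller SD of their ratios. The probe is dim, close to the 6.46 to 7.02 of the Calb1 probe that failed the filter, and the offset of 50 draws the ratios of dim probes towards 0, so the interval may be too narrow. Both female arrays were below 0 and both male arrays above it, by at most 0.14, and a cKO effect that differed between sexes was not called (unadjusted p = 0.607, adjusted p = 1).

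This value rests on 1 of 3 Pax2 probes, the first of the Pax2 sequences above. The probe at chromosome 19, 44835420 to 44835479, the second sequence, was well above background on 0 of 4 arrays in cKO and on 0 of 4 in control RNA. Its base composition is 70% G and C, against 55% in the probe that was measured. A further probe at 44871124 to 44871183 reached that level on 1 array in each genotype. Their log2 ratios, 0.04 ± 0.12 and 0.03 ± 0.16, were not tested.

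Pax8, the paired-box factor that acts together with Pax2 in the nephric duct and is also made in early nephrons, varied between arrays. In cKO RNAs its level was 10.97, 10.98, 11.20 and 11.04, against 10.56, 11.33, 10.95 and 10.49 in control RNAs. The cKO RNAs formed a narrow band, and the control RNAs spread on both sides of it, with the control of replicate 2 highest. The log2 ratio was 0.21 ± 0.40 (SD, n = 4), with a 95% interval of -0.15 to 0.58 (limma, adjusted p = 0.995). The ratio depended on both replicate 2 and replicate 4. Without replicate 2 it was 0.44 with adjusted p = 0.012 (limma), a setting in which 4.35% of all genes were called. Replicate 4, where the ratio was highest, was then the only array with green cKO RNA. Without replicate 4 the ratio was -0.01 (adjusted p = 0.943). Its probe lies on chromosome 2 at 24276147 to 24276206.

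Lhx1, a LIM homeobox factor of the duct, the bud tips and the first epithelial bodies of the nephron, had the widest spread of the 8 genes. Its level was 7.37, 7.77, 6.68 and 7.96 in cKO RNAs, against 7.15, 8.08, 7.28 and 6.87 in control RNAs. The lowest and the second highest of the 8 values were both cKO, so the genotypes overlapped over almost the whole range. The log2 ratios of 0.23, -0.30, -0.60 and 1.09 averaged 0.10 ± 0.74 (SD, n = 4; 95% interval -0.49 to 0.70; limma, adjusted p = 1). Of all genes, 99.8% had a smaller SD. The mean turned negative when replicate 4 was left out (-0.25, adjusted p = 0.294), and likewise when replicate 1 was (-0.11, adjusted p = 1). The other Lhx1 probe, printed above, gave ratios of -0.03, -0.25, -0.17 and 0.32, so both probes were lowest in replicate 2 or 3 and highest in replicate 4.

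Emx2, a homeobox factor required for the nephric duct and for the gonad and reproductive ducts, differed little. Its level was 10.44, 10.13, 10.41 and 10.16 in cKO RNAs and 10.39, 10.40, 10.34 and 10.18 in control RNAs. The groups overlapped and the ratio was -0.04 ± 0.16 (SD, n = 4), with a 95% interval of -0.24 to 0.15 (limma, adjusted p = 1). Its probe lies on chromosome 19 at 59539142 to 59539201.

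Mecom, which encodes the zinc finger factor EVI1 and is expressed in endothelium too, had the smallest p of the 8 genes. By the probe printed above, its level was 9.54, 9.62, 9.76 and 9.67 in cKO RNAs, against 9.61, 8.90, 9.13 and 9.57 in control RNAs. The controls of replicates 2 and 3 were low, while those of replicates 1 and 4 were level with the cKO RNAs. The log2 ratio was 0.35 ± 0.39 (SD, n = 4), or 1.27-fold, with a 95% interval of -0.03 to 0.72 (limma, unadjusted p = 0.0637, adjusted p = 0.695). Without replicate 4 it was 0.50 with adjusted p = 0.0443, a setting in which 7.44% of all genes were called.

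The Mecom probes did not give the same picture. The printed probe is assigned by the files to transcript variant 1. A probe assigned to variant 2, at chromosome 3, 30135491 to 30135550, gave log2 ratios of -0.14, 0.21, 0.12 and -0.25, a mean of -0.01 ± 0.22 (SD, n = 4; limma over all kept probes, adjusted p = 1). The order of the arrays was similar in both, with replicates 2 and 3 above replicates 1 and 4. The third probe, at 30445665 to 30445724, was well above background on no array. Of the 28611 probes kept, 1.01% were called when tested one by one, and of the 10 kept probes of these genes 0 were called.

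Sall4, a zinc finger factor of pluripotent cells and the germ line, had ratios whose sign differed between the dye orientations. Its level was 11.75, 11.91, 11.68 and 11.10 in cKO RNAs, against 11.04, 12.40, 11.34 and 11.42 in control RNAs. The control of replicate 2 was the highest of the 8, and the groups overlapped. Where cKO RNA was red, in replicates 1 and 3, the log2 ratio was 0.70 and 0.34. Where it was green, in replicates 2 and 4, the ratio was -0.48 and -0.32. The fitted dye effect was 0.46 (limma, unadjusted p = 0.0021, adjusted p = 1; 0% of all genes were called for the dye), while the cKO ratio was 0.06 with a 95% interval of -0.16 to 0.28. In replicates 1 and 3 alone, where the dye is not balanced, the ratio was 0.52 with adjusted p = 0.028, with 3.38% of all genes called. The other 2 Sall4 probes were well above background on 0 of 4 arrays in cKO RNA and on at most 1 of 4 in control RNA, although the files assign all 3 to the same transcript.

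**Figure D2:**
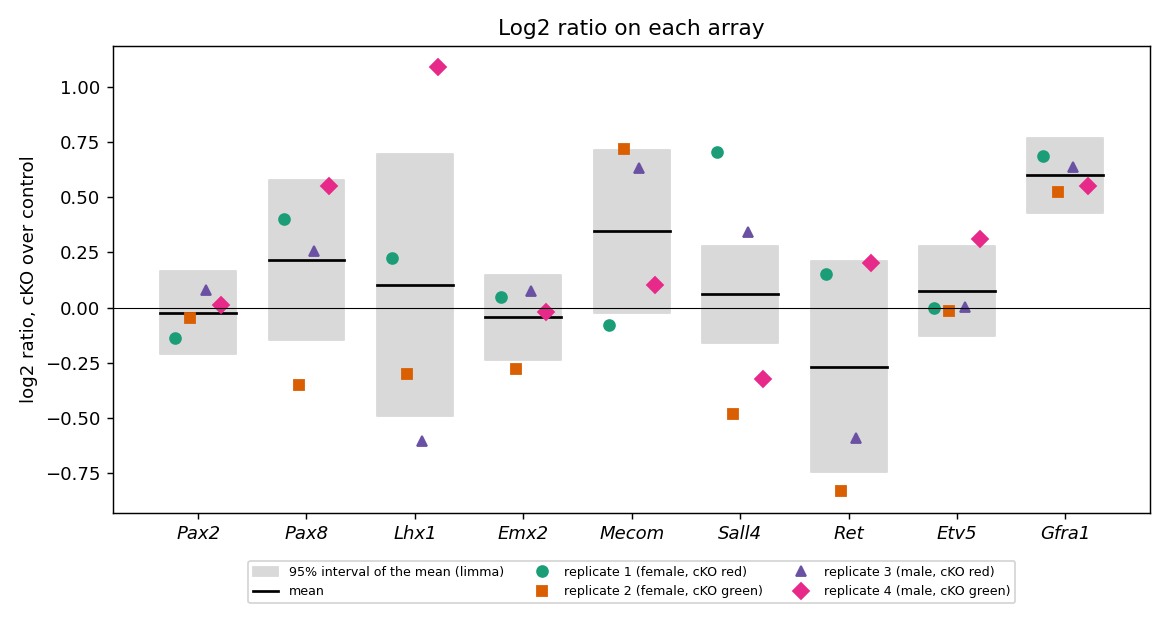
Log2 ratio of cKO over control on each of the 4 arrays for the 8 genes and for the co-receptor gene Gfra1. Black lines are means and grey bars their 95% intervals from limma. The intervals of the 8 genes include 0, and the points of Gfra1 lie between 0.52 and 0.69.

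Ret, the receptor of the bud tip, was lower in cKO RNA on 2 arrays and higher on the other two. Its level was 9.62, 9.65, 9.69 and 9.84 in cKO RNAs, against 9.46, 10.48, 10.28 and 9.64 in control RNAs. The cKO RNAs lay close together, and the controls of replicates 2 and 3 stood above all of them. The log2 ratio was -0.27 ± 0.52 (SD, n = 4), with a 95% interval of -0.75 to 0.21, or 0.596 to 1.16 times the control level (limma, unadjusted p = 0.219, adjusted p = 1). Without replicate 4 it was -0.53 with adjusted p = 0.0404, and without replicate 2 it was -0.01 (adjusted p = 0.994). The probe lies on chromosome 6 at 118101791 to 118101850.

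Etv5, the Ets factor downstream of Ret, was level on 3 of the 4 arrays. In cKO RNAs it was at 13.15, 13.26, 13.00 and 13.35, and in control RNAs at 13.15, 13.28, 13.00 and 13.04. The RNAs of replicate 4 differed, where the cKO level was the highest of all 8 and the control level lay within the range of the other controls. The log2 ratio was 0.07 ± 0.16 (SD, n = 4; 95% interval -0.13 to 0.28; limma, adjusted p = 1), and -0.01 without replicate 4. Its probe lies on chromosome 16 at 22381387 to 22381446.

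Calb1 did not pass the filter and was not tested. Of its 2 probes, the one at chromosome 4, 15835078 to 15835137, was well above background on 3 of 4 arrays in cKO and on 3 of 4 in control RNA. Its level was 6.79, 7.02, 6.46 and 6.80 in cKO RNAs and 6.76, 6.85, 6.67 and 6.56 in control RNAs, with overlapping groups and a log2 ratio of 0.06 ± 0.20 (SD, n = 4). The other, at 15833582 to 15833641, reached that level on 1 array in cKO and on 0 in control RNA.

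The genes around Ret in its pathway were read next. Of 18 genes of Gdnf-Ret signalling, all above background, 1 was higher and 0 were lower in cKO ureters, beside 0.497% higher and 0.697% lower over all genes. The gene that rose was Gfra1, the co-receptor that binds Gdnf and presents it to Ret. Its level was 10.62, 10.22, 10.16 and 10.51 in cKO RNAs, against 9.94, 9.70, 9.52 and 9.96 in control RNAs, with no overlap. The log2 ratio was 0.60 ± 0.08 (SD, n = 4), or 1.51-fold, with adjusted p = 0.0202 (limma; probe on chromosome 19, 58311604 to 58311663). Taken as 8 separate RNAs, with no replicate block, it missed the threshold (adjusted p = 0.0899), and so it did with the deposited value table (0.148).

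The remaining genes of the pathway did not pass. Spred2, an inhibitor of Ras signalling, was at -0.39 ± 0.18 (adjusted p = 0.141) and Myb, a transcription factor induced by Ret in bud tips, at -0.24 ± 0.12 (adjusted p = 0.436). The ligand gene Gdnf was at -0.21 ± 0.60 and Etv4 at -0.01 ± 0.55 (limma, adjusted p = 1 for both), each with its lowest ratio in replicate 3 and its highest in replicate 4. The median log2 ratio of the list was -0.06.

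**Figure D3:**
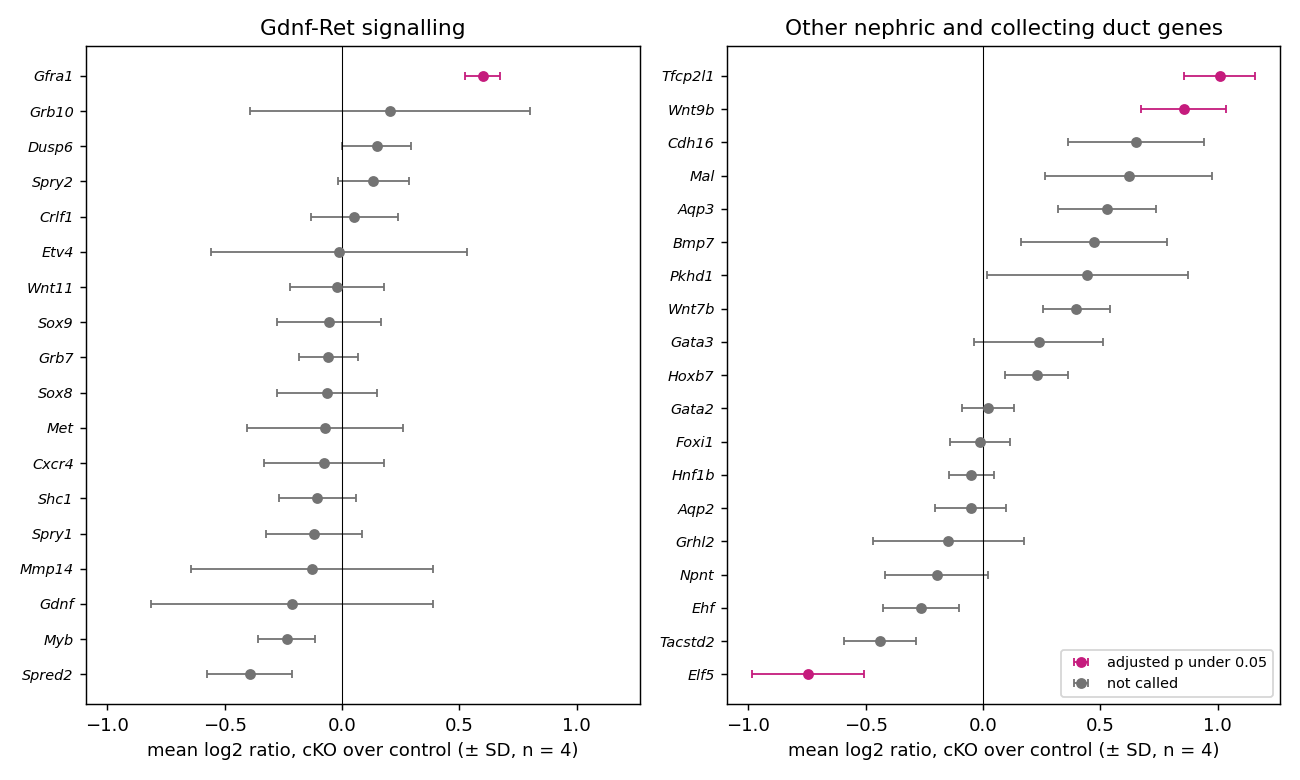
Mean log2 ratio of cKO over control, with SD over 4 arrays, for the tested genes of Gdnf-Ret signalling (left) and for other genes of the nephric and collecting duct (right). Coloured points passed the test over all genes. Gfra1 passed on the left, and Tfcp2l1, Wnt9b and Elf5 passed on the right.

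Of 19 further genes of the nephric duct and collecting duct above background, 2 rose and 1 fell, where 1.19% of all genes were called. Tfcp2l1, a transcription factor of collecting duct cells, was at 12.53, 12.32, 12.60 and 12.19 in cKO RNAs, against 11.52, 11.38, 11.37 and 11.32 in control RNAs. This is a log2 ratio of 1.01 ± 0.15 (SD, n = 4), or 2.01-fold (adjusted p = 0.00434; chromosome 1, 120581646 to 120581705). Wnt9b, a ligand that the duct sends to the kidney mesenchyme, rose by 0.86 ± 0.18 or 1.81-fold (adjusted p = 0.0167; chromosome 11, 103588882 to 103588941). Elf5, an Ets factor of principal cells of the collecting duct and of other epithelia, fell by 0.74 with an SD of 0.24 (adjusted p = 0.0353; chromosome 2, 103290958 to 103291017). For each of these 3 genes the cKO and control RNAs did not overlap. With the deposited value table none of the 3 passed (limma, adjusted p = 0.187 for Tfcp2l1, 0.277 for Wnt9b and 0.366 for Elf5), and with no filter Wnt9b (0.0922) and Elf5 (0.142) did not.

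Other genes of that list had positive ratios without passing: Cdh16, a kidney cadherin, was at 0.65 ± 0.29 (limma, adjusted p = 0.0969) and Aqp3, a water channel, at 0.53 ± 0.21 (adjusted p = 0.0947). At an unadjusted p under 0.05, which 8.04% of all genes reached, there were 9 higher and 3 lower genes, and the list's median log2 ratio was 0.23. Its summed intensity was 233473 to 276095 in cKO RNAs and 199950 to 208137 in control RNAs. Mal, a membrane protein of apical transport, was the brightest of its probes and weighed most in that sum, but was not called. The Mal level was 16.59, 16.81, 16.90 and 16.44 in cKO RNAs, against 15.98, 15.93, 16.03 and 16.32 in control RNAs. The sums therefore do not stand for the list evenly. The count of called genes was 1 with no filter (0.287% of all genes called) and 0 with the deposited value table (0.00465%). It was 6 without replicate 1 (1.68%), 12 without replicate 2 (4.35%), 9 without replicate 4 (7.44%) and 9 with replicates 1 and 3 alone (3.38%). Sim1 was not above background.

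The spread of the regulators between arrays was itself wide. The SD of the 4 log2 ratios was larger than that of 95% of all genes for 5 of the 8: Pax8, Lhx1, Ret, Mecom and Sall4. The median SD was 0.39 over the 8 genes and 0.16 over all genes. Some of the marker lists read below were wide as well. Their median SD was 0.37 for early and differentiated nephron, 0.30 for nephron progenitors and 0.28 for neuron and glia. In the other lists it ran from 0.16 for gonad to 0.23 for endothelium. Levels of the cKO RNAs had the smaller SD in 5 of the 8 genes, beside 65.4% of all genes, so that share was close to the background.

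Markers of kidney tissue and of nerve moved between the same arrays. Six2, which marks the nephron progenitors next to the bud tips, had log2 ratios of -0.33, -0.37, -1.0 and 0.71 in replicates 1 to 4. Like Gdnf, Etv4 and the brighter Lhx1 probe it was lowest in replicate 3 and highest in replicate 4. Six2, Gdnf and Etv4 were chosen after their values were seen, so this shared order is not a test. The other Lhx1 probe was lowest in replicate 2, at -0.25. The Six2 level was 11.46 and 13.34 in the cKO RNAs of replicates 3 and 4, against 12.46 and 12.63 in their controls. All 13 markers of nephron progenitors and metanephric mesenchyme were above background and 0 were called (limma; 0 at an unadjusted p under 0.05). Their median ratios were -0.14, -0.10, -0.11 and 0.19 in replicates 1 to 4, and 8 of the 13 were negative in replicate 3 and positive in replicate 4, as were 32.4% of all genes. Their summed intensity was 119164 to 146311 in cKO and 126445 to 142187 in control RNAs. Their part in the spread of Lhx1 was not tested.

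In the list of early and differentiated nephron genes, 12 of 15 were above background, with Nphs1, Slc12a1 and Umod below it. The medians of this list were -0.02, -0.58, -0.11 and 0.47, so that replicate 2 was low and replicate 4 high, as for Pax8. Of the 12 genes, 6 were negative in replicate 2 and positive in replicate 4, as were 33.5% of all genes. Among the regulators, Pax8, Lhx1, Ret and Sall4 each had their highest level in the control RNA of replicate 2, while Pax2, Emx2, Mecom and Etv5 had theirs in other RNAs. The share of all genes that were highest in that RNA was not computed, so this does not set the regulators apart. Within the list, Cubn, an endocytic receptor of the proximal tubule, rose by 2.22 ± 0.28 (adjusted p = 0.00177), and Wnt4, a signal of early nephrons and of mesenchyme, fell by 0.60 with an SD of 0.07 (limma, adjusted p = 0.0223). With the deposited value table neither passed (adjusted p = 0.204 for Cubn and 0.187 for Wnt4), and Wnt4 also did not with no filter (0.0525) or without replicate 1 (0.0529). Lrp2, another endocytic receptor of the proximal tubule, was at 0.37 ± 0.32 (limma, adjusted p = 0.201). Fbp1, also on the list, was at 8.05, 8.03, 8.11 and 8.16 in cKO RNAs, against 8.23, 9.36, 8.40 and 8.38 in control RNAs. Its cKO and control levels did not overlap. At an unadjusted p under 0.05 (limma), 3 genes of the list were higher and 3 lower, and its median log2 ratio was -0.14. The summed intensity was 19369 to 23326 in cKO and 19425 to 24669 in control RNAs. The part of these cells in the values of Pax8 was not tested.

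Ret is also made by neurons of the ganglia near the urinary tract. Of 13 neuron and glia markers, 12 were above background, with Chrna3 below it, and 0 were called (limma; 1 lower at an unadjusted p under 0.05). Their medians were -0.16, -0.41, -0.01 and 0.13, lowest in replicate 2 like Ret, although Ret was also low in replicate 3. Tubb3, a tubulin of neurons, was at 11.11, 11.09, 11.11 and 11.47 in cKO RNAs, against 11.47, 12.55, 11.44 and 10.91 in control RNAs. Stmn2 was at -0.27 ± 0.10 (adjusted p = 0.308) and Sox10 at -0.21 ± 0.30 (adjusted p = 0.930). The summed intensity of the list was 53447 to 64214 in cKO RNAs and 52726 to 75431 in control RNAs. The part of nerve tissue in the values of Ret was not tested.

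**Figure D4:**
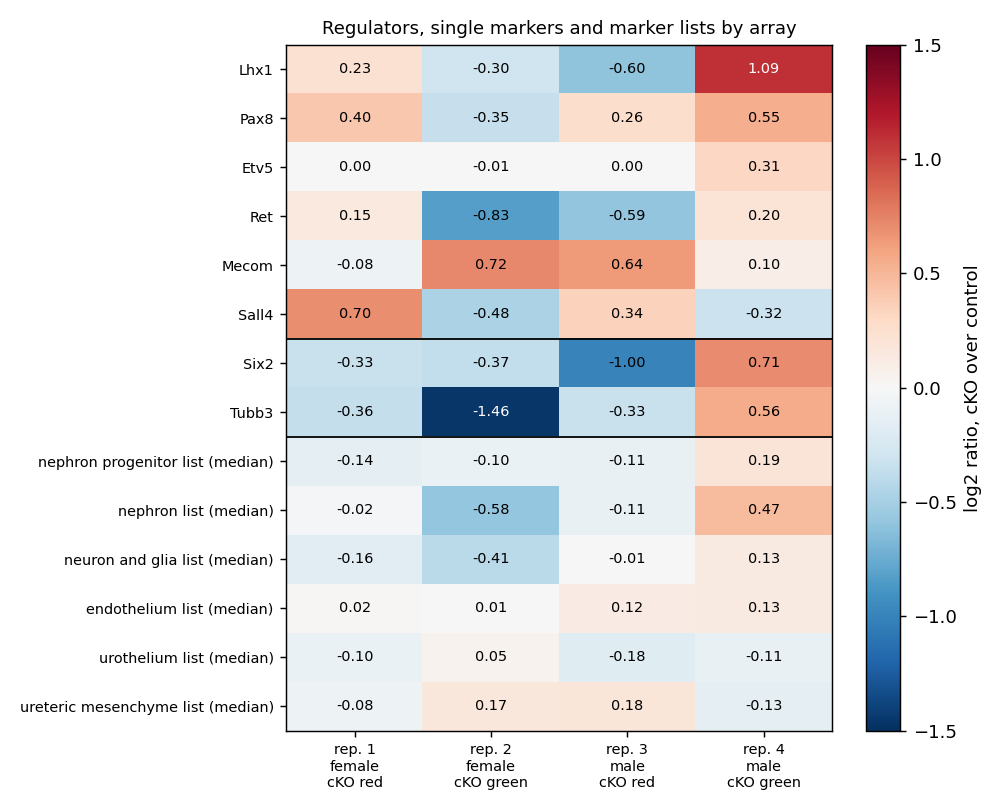
Log2 ratios of cKO over control by array for 6 of the regulators (top), 2 single markers (middle) and the medians of 6 marker lists (bottom), with red for higher and blue for lower in cKO RNA. Lhx1 and Six2 share their lowest value in replicate 3 and their highest in replicate 4, and Tubb3 reaches -1.46 in replicate 2 and 0.56 in replicate 4. Six2 and Tubb3 were chosen after their values were seen.

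Other tissues in which these genes are known were read in the same way. All 11 endothelial markers, the cells in which Mecom is also expressed, were above background, and 0 were called (limma; 0 at an unadjusted p under 0.05). Cldn5 was at 0.19 ± 0.25 and Egfl7 at -0.17 ± 0.34, the list's median was 0.11 and its summed intensity was 103392 to 112176 in cKO and 97982 to 105161 in control RNAs. Of 13 genes of gonad, germ cells and reproductive ducts, where Emx2 and Sall4 are expressed, 11 were above background, Amh and Dppa3 were not, and 0 were called (limma; 2 higher at an unadjusted p under 0.05). Cyp11a1 was at 0.41 ± 0.17 (adjusted p = 0.130) and the germ cell gene Ddx4 at 0.18 ± 0.09 (adjusted p = 0.567). Their summed intensity was 7570 to 9365 in cKO and 8198 to 8690 in control RNAs, and the part of these cells in the values of Emx2 and Sall4 was not tested.

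In the ureter's own lists, Krt5, the keratin of basal cells, fell by 1.87 with an SD of 0.42 (limma, adjusted p = 0.00352), Upk2 by 0.54 (adjusted p = 0.0369) and Grhl3 by 0.68 (adjusted p = 0.0470), while Krt18 rose by 0.50 (adjusted p = 0.0378). None of these 4 passed with no filter (limma, adjusted p = 0.0514 for Krt5, 0.08 for Upk2, 0.172 for Grhl3 and 0.0612 for Krt18) or with the deposited value table (0.180 to 0.366). Upk2 and Krt18 also missed the threshold with the processed signals (0.0593 and 0.0555), with median centring (0.0991 and 0.124), without replicate 1 (0.107 and 0.177) and without replicate 3 (0.0893 and 0.159), and Upk2 with no replicate block (0.154). Krt8 was at 0.37 ± 0.19 and Cdh1 at -0.40 ± 0.26, neither past the threshold. The 14 urothelial genes had a median of -0.05 and summed to 816474 to 887772 in cKO and 769278 to 864122 in control RNAs. Of 13 genes of ureteric mesenchyme and smooth muscle 0 were called (limma; at an unadjusted p under 0.05, 1 was higher), among them Foxf1 at 0.45 ± 0.31 and Aldh1a2 at 0.19 ± 0.15. The median of that list was 0.04, and it summed to 550039 to 645254 in cKO and 547765 to 604954 in control RNAs.

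A cKO effect that differed between female and male arrays was called for 0 of the 8 regulators. Their unadjusted p-values for that difference ran from 0.161 for Pax8 to 0.863 for Mecom (limma, adjusted p = 1 for each), and 0.0697% of all genes were called. With 2 arrays of each sex, this test has little power. Among the genes named, its unadjusted p-values followed the size of the difference alone, so they do not measure each gene's own spread.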

How the data were processed

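Each array's deposited file gives spot intensities (mean signal and median local background, red and green). The software was Agilent Feature Extraction 10.7.3.1, as the submitters' processing notes and the file headers say, with flags for spots well above background, nonuniform or saturated. The same files hold processed intensities, background-subtracted, detrended and dye-normalized by that software, per the file headers. The deposited value table holds log2 ratios. Against the processed signals its slope was 1 or -1 for red over green as the dyes required, so it gives cKO over control, with a median of 0 in each column. The sources do not say how it was centred.

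From these files, background was corrected with normexp (offset 50), log2 ratios were normalised by loess within arrays with control spots at weight 0, spots marked nonuniform (17 to 33 per array) were dropped and each probe's 4 spots were averaged. Probes stayed in if 0.5 or more of their spots were well above background in all 4 cKO RNAs or in all 4 control RNAs (28611 of 39429 probes). The brightest kept probe stood for its gene, giving 21518 genes. Levels of single RNAs came from Aquantile scaling after loess. Names were those of the files, through the reference table (GRCm38.p6, names only) where it held them.

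The ratios went into limma 3.58.1, run in R 4.3.3 (cKO coefficient and dye intercept, two-sided, Benjamini-Hochberg over all genes), and the fit was tested on simulated data. Each array holds 1 cKO and 1 control RNA, so the array is the pair. Genes named are the 9 regulators, Trp63, and from each list the genes called (at most 6) and the 2 with the smallest p below the call; some results are not reported here. Etv4, Gdnf, Six2, Tubb3 and other genes given only by their values were chosen after their values were seen. The regulators and lists were chosen with earlier results of these data known. Agilent's processed signals, median centring, no filter, the value table, other model terms, unpaired channels, mean probes and left-out replicates were tried as alternatives.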

Additional observations from a re-analysis of the deposited data

Results flagged for a closer look

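Among 57 groups of 4 values examined for 1 value far from the others, 3 were flagged, about as many as chance gives (1 in 20 groups). The log2 ratio of Etv5 was 0.31 in replicate 4, away from the other 3 arrays near 0. That of Wnt4 was -0.49 in replicate 3, the smallest decrease of 4, and that of Krt5 was -1.24 in replicate 2, the smallest decrease of 4.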

How the results depend on the processing

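The array is the pair, so the results above hold each cKO RNA against the control RNA on its array. Of 104 values for the 8 tested regulators under 13 alternatives, 90 kept their direction and their side of the threshold, 10 reversed and 4 passed it. The cause was not tested. The 257 genes called became 86 with no filter (more genes tested), 1 with the deposited table, 460 without the dye term, 542 with a sex term, 387 with 8 separate channels and no replicate block, and 727 with replicates 1 and 3 alone, an alternative chosen after seeing the data. With 1 replicate left out they were 283 to 1602. The residual spread of a gene then comes from 1 pair of arrays with the same dye orientation, before limma moderates it over genes. Without replicate 1 or replicate 3, and with a sex term, adjusted p-values of the named genes followed the size of the log2 ratio alone. Those settings therefore do not weigh each gene's own spread, unlike the settings without replicate 2 or replicate 4.

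Called regulators were 0 to 2 with 1 replicate left out, 1 with replicates 1 and 3 alone and 0 under each other alternative. Called genes of Gdnf-Ret signalling were 0 with the deposited table, 0 with no replicate block and 1 to 3 with 1 replicate left out. The 3 of the other nephric duct list became 1 with no filter, 0 with the deposited table, 7 without the dye term, 9 with a sex term, 5 with no replicate block, 9 with replicates 1 and 3 alone and 4 to 12 with 1 replicate left out. The 15 genes whose cKO effect differed between sexes became 34 with the processed signals and 0 without the dye term.

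With median centring Emx2 reversed to 0.01 and Etv4 to 0.04. With 1 replicate left out, the log2 ratios whose sign turned ran from -0.08 to 0.03 for Pax2, -0.01 to 0.44 for Pax8, -0.11 to 0.02 for Emx2, -0.25 to 0.45 for Lhx1, -0.03 to 0.15 for Sall4, -0.01 to 0.16 for Etv5, -0.26 to 0.24 for Etv4, -0.52 to 0.02 for Six2 and -0.90 to 0.11 for Tubb3. The turns came without replicate 1 for Pax2, Lhx1 and Sall4, without replicate 2 for Emx2, Etv4, Six2 and Tubb3, without replicate 3 for Etv4 (0.07), and without replicate 4 for Pax8, Lhx1 and Etv5. Lhx1 was at -0.11 without replicate 1. In replicates 1 and 3 alone Emx2 reversed to 0.06 and Lhx1 to -0.19. Dim probes limit what can be read of Calb1, Pax2 and Lhx1.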
